A study of Mus musculus with 14 samples.

Results

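The genes described here are the mouse tryptases Tpsb2, Tpsab1, Tpsg1 and Prss34 and the mast cell carboxypeptidase Cpa3. They were taken by symbol, as 5 of the 55487 genes in the deposited table of read counts, and all 5 had enough counts to be tested. RNA was sequenced from 14 libraries, each made from a small pool of mast cells sorted from both ears of a mouse model of atopic dermatitis or of untreated mice. In the model, ear skin is treated with MC903 (calcipotriol, an analogue of vitamin D), which produces an inflammation resembling atopic dermatitis. The 3 labelled groups were resident mast cells of untreated mice (libraries 1 to 5, n = 5), resident mast cells after MC903 treatment (libraries 6 to 10, n = 5) and MC903-treated cells to which the labels give the name bone marrow mast cells (libraries 11, 13, 14 and 15, n = 4). The extraction protocol names resident and integrin β7-positive cells only, and cells of the last group were taken as the integrin β7-positive cells of the treated ear. The strain, sex and age of the mice and the dose and days of MC903 are not given in the labels. No untreated group of integrin β7-positive cells is among the libraries analysed here, so treatment and cell type both differ between the bone marrow and the untreated resident libraries. The labels do not say that libraries came from separate mice, and the p-values measure only the spread between these libraries, which may in part be technical.

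Mast cells store tryptases and carboxypeptidase A3 in their secretory granules, bound to the heparin chains of the proteoglycan serglycin, and release them when they degranulate. Tryptases are serine proteases that cut after basic residues; Tpsb2 encodes mouse mast cell protease 6 and Tpsab1 mouse mast cell protease 7, both soluble granule enzymes, whereas the product of Tpsg1 (γ-tryptase, or transmembrane tryptase) keeps a membrane anchor. Prss34 encodes mouse mast cell protease 11, which is known mainly from basophils. Carboxypeptidase A3 is a zinc exopeptidase that removes aromatic and aliphatic residues from the carboxyl end of peptides such as endothelin and neurotensin, and it is stored together with chymase. Tpsb2, Cpa3 and the chymase genes Cma1 and Mcpt4 are classical products of connective tissue mast cells, the resident type of skin.

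On GRCm38, the 4 tryptase genes lie within 76.0 kb of chromosome 17. Prss34 (ENSMUSG00000056399.2, 25298394 to 25300165, plus strand) is followed after 43.1 kb by Tpsab1 (ENSMUSG00000024173.11, 25343245 to 25345562, minus strand), and this after 20.7 kb by Tpsb2 (ENSMUSG00000033825.10, 25366305 to 25369098, plus strand). Tpsg1 (ENSMUSG00000033200.16, 25369273 to 25374442, plus strand) starts 174 bases beyond the end of Tpsb2. Cpa3 (ENSMUSG00000001865.2, 20215620 to 20242181, minus strand) lies apart from them on chromosome 3. GENCODE lists Tpsab1 as protein-coding, and RefSeq lists it as a transcribed pseudogene of the reference strain, so its counts are a measure of RNA and not of protein.

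Because the tryptases are related, their transcripts were compared to see whether reads of one gene could be taken for another. Over 818 aligned coding bases, Tpsb2 and Tpsab1 were 75.9% identical, and the other 5 pairs of tryptases were between 64.6% and 67.6% identical. The longest identical run between Tpsb2 and Tpsab1 was 39 bases. It falls in the following 240 bases of spliced coding sequence (GRCm38, exons within chr17:25366787-25367146 of Tpsb2 on the plus strand and chr17:25344816-25345188 of Tpsab1 on the minus strand), shown because the direction of change differs between these genes below. Capitals mark the 67 bases that differ between the sequences, which are written 5′ to 3′.
Tpsb2: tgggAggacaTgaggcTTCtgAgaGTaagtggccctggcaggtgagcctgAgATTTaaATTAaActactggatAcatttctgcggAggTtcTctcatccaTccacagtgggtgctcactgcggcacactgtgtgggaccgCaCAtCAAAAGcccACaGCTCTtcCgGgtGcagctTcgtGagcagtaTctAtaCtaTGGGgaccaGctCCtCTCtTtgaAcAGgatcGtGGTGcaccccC
Tpsab1: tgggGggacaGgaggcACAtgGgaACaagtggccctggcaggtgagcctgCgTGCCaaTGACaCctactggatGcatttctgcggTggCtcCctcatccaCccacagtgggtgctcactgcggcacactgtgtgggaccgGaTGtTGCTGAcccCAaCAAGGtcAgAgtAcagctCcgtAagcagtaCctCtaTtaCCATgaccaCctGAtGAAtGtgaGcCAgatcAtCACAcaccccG
No stretch of 50 bases was shared between the transcripts of any 2 members. Tpsg1 alone shared such stretches with another gene: 109 of its 1434 (7.6%) also belong to Cacna1h, a calcium channel gene on the opposite strand, whose exons cover 158 bases (11.4%) of Tpsg1. The kit does not mark strand and the strand setting of the counting is not given in the sources used here, so reads in that overlap cannot be told apart. Read length is not given in the sources used here.

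RefSeq promoter windows (GRCm38.p6, the 250 bases before the start) were found for Cpa3, Tpsg1 and Prss34. Each was searched on both strands for the letters AGATAA or TGATAA, the core of the motif bound by GATA factors, because Gata2 and Gata1 are among the regulators of mast cell genes described below. All 3 held 1 match, and 16.6% of 32851 promoter windows of the same length held at least 1. Those of Cpa3 (chr3:20242182-20242431, minus strand) and Prss34 (chr17:25298144-25298393, plus strand) are shown as the members with the highest and the lowest RNA level, with the match in capitals.
Cpa3: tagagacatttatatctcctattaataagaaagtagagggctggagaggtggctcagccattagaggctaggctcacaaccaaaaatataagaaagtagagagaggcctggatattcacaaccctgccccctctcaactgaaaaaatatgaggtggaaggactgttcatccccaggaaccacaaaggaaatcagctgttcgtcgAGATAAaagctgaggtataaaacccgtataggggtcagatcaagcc
Prss34: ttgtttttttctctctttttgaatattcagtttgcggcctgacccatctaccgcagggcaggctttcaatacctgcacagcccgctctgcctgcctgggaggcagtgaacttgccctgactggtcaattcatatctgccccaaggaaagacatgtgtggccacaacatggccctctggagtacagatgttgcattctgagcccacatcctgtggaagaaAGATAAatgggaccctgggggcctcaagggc
The match begins 46 bases before the start in Cpa3, 31 bases before it in Prss34 and 93 bases before it in Tpsg1. A match describes letters only, and its relation to the RNA level was not tested. No promoter window was found for Tpsb2 or Tpsab1, so these could not be searched.

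Before the members are compared, the make-up of the libraries is given in ranges. Total counts ranged from 17706764 to 27068993 in untreated resident, from 13068078 to 25287381 in MC903 resident and from 19978811 to 31781926 in bone marrow libraries. All 10 mast cell markers (Kit, Fcer1a and Hdc among them) exceeded 10 CPM (counts scaled to a common library total) in every library, so the label of mast cell matched its defining genes. Summed levels of 8 macrophage and dendritic cell markers were 28.02 to 81.9 CPM in untreated resident and 38.3 to 155 CPM in MC903 resident libraries, with 1 or 2 of the 8 above 10 CPM in each. In the bone marrow group they were 11.7 CPM in library 13, 17.9 CPM in library 11, 323 CPM in library 14 and 12581 CPM in library 15, where 7 of the 8 markers exceeded 10 CPM. Markers of eosinophils, keratinocytes and fibroblasts summed to at most 7.77, 9.10 and 31.995 CPM in any library, those of T cells to at most 84.1 CPM and those of neutrophils to at most 74.9 CPM, this last in library 15. Libraries 7, 8 and 15 also stood apart by the genes detected with 1 count or more (34560, 35246 and 32814, against 16025 to 28790 in the others). The calls of the members are therefore given with and without these libraries.

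Together the 5 genes took 3.54% to 4.23% of all counts in untreated resident libraries, 5.18% to 6.47% in MC903 resident libraries and 4.72% to 6.75% in bone marrow libraries. Between genes, levels were compared as CPM per kilobase of the gene length in the table. On that scale Cpa3 was the highest member, at 14590 ± 2989 in untreated resident (SD, n = 5), 18677 ± 4441 in MC903 resident (SD, n = 5) and 22909 ± 5530 in bone marrow libraries (SD, n = 4). Tpsb2 came next at 7905 ± 605, 15675 ± 3408 and 13625 ± 2195 CPM per kilobase, and library 8 of the MC903 resident group was the only one in which it passed Cpa3. Tpsab1 followed with means of 2122, 1525 and 2808, Tpsg1 with 934, 451 and 436, and Prss34 with 0.310, 8.37 and 4.31 CPM per kilobase. Among all genes tested, Cpa3 ranked 3 to 7 and Tpsb2 ranked 4 to 7, counted from the highest, in every library. Tpsab1 ranked 14 to 27, and Tpsg1 ranked 45 to 51 in untreated resident, 72 to 94 in MC903 resident and 95 to 142 in bone marrow libraries.

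**Figure D1:**
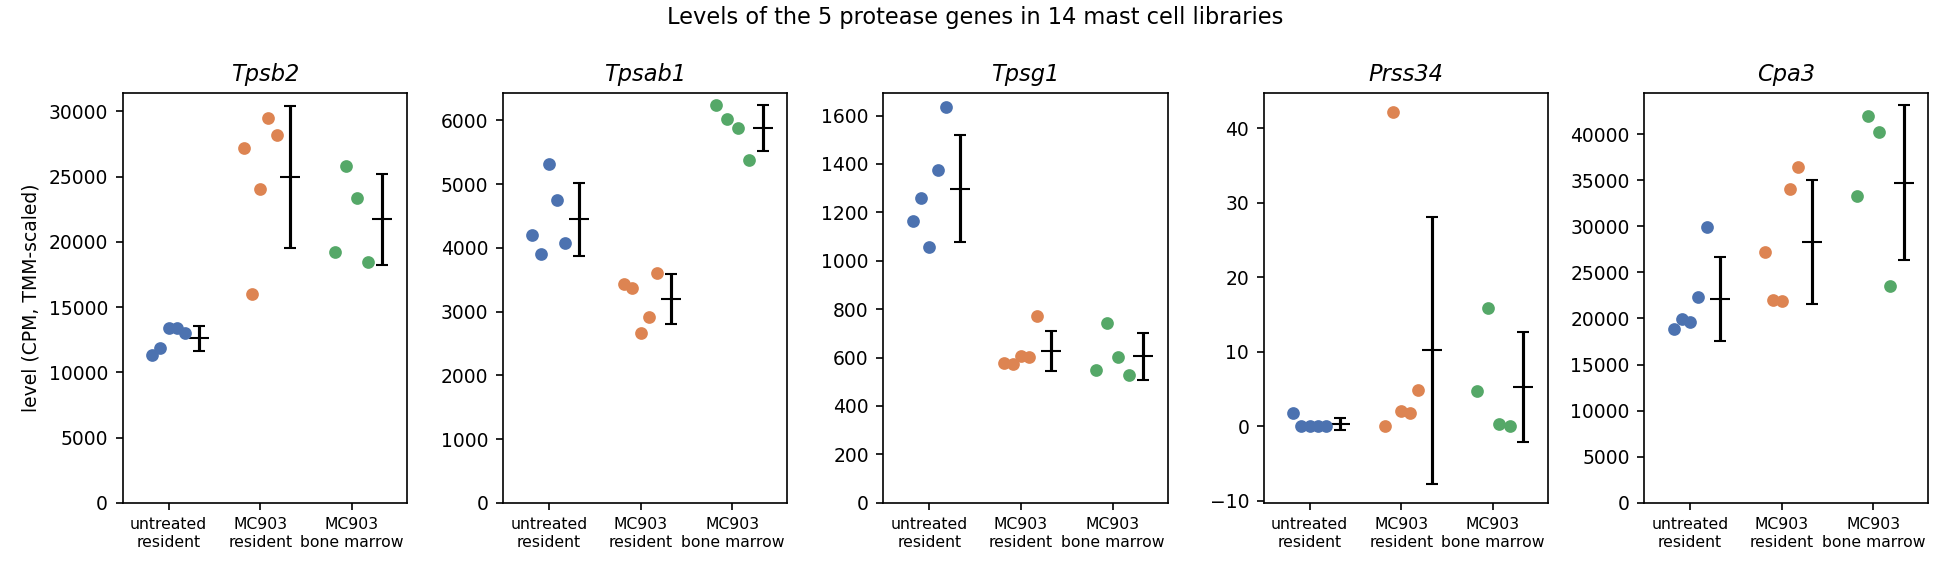
Level of each protease gene in CPM (vertical axis, linear, scaled by TMM) for each library (points) in the 3 groups, with the mean and SD of each group as a bar; the bars of Prss34 reach below 0 because the SD is larger than the mean. Tpsb2 is lowest in untreated resident cells, Tpsg1 is highest there, Tpsab1 is highest in bone marrow cells, Cpa3 overlaps between groups, and Prss34 is near 0 in most libraries.

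MC903 treatment was compared with no treatment in the resident mast cells first. Tpsb2 rose and Tpsg1 fell in the treated skin, and the genes are neighbours on the same strand. Changes in level are differences in RNA per library, and in sorted pools a smaller share of cells with a transcript and less transcript per cell cannot be told apart. Tpsb2 was at 11319, 11831, 13396, 13418 and 13038 CPM in untreated libraries 1 to 5 and at 27211, 15969, 24026, 29518 and 28202 CPM in MC903 libraries 6 to 10. The groups did not overlap, and library 7 was the lowest of the treated ones. The mean moved from 12600 ± 965 to 24985 ± 5433 CPM (SD, n = 5 each), which is a log2 fold change of 0.99 ± 0.159 (SE; 95% interval 0.66 to 1.32) or 1.98-fold, at an adjusted p of 0.00104 (edgeR quasi-likelihood test, Benjamini-Hochberg over 21014 genes).

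Tpsg1, the membrane-anchored tryptase, moved the other way. It was at 1165, 1257, 1058, 1374 and 1635 CPM in the untreated libraries and at 577, 575, 606, 603 and 772 CPM in the MC903 resident libraries. Every treated library was below every untreated one, and library 10 was the highest of the treated ones. The log2 fold change was -1.05 ± 0.162 (SE; 95% interval -1.39 to -0.71), 2.07-fold lower, with an edgeR adjusted p of 0.000749. Cacna1h, whose exons overlap part of Tpsg1, fell by 2.44 ± 0.582 (SE) on the log2 scale in the same comparison (edgeR adjusted p = 0.0255). The counts of Cacna1h were between 26 and 1924 per library, and the part of reads from the overlap in the Tpsg1 difference was not tested.

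Tpsab1, the other soluble tryptase, was at 4201, 3896, 5309, 4747 and 4069 CPM in untreated and at 3434, 3362, 2657, 2911 and 3608 CPM in MC903 resident libraries. The groups did not overlap, but the difference did not pass the test (log2 fold change -0.48 ± 0.137, SE; 95% interval -0.76 to -0.19; edgeR adjusted p = 0.0777). It passed in 2 of 14 alternative fits, with adjusted p-values of 0.00148 when genes with low counts were kept and 0.00262 with limma and voom, and in 0 of 10 fits that left out 1 library. Cpa3 was at 18809, 19973, 19673, 22305 and 29907 CPM in untreated and at 27268, 22040, 21850, 34034 and 36473 CPM in MC903 resident libraries. These ranges overlapped, and the log2 difference of 0.36 ± 0.186 (SE; 95% interval -0.03 to 0.74) did not pass the test (edgeR adjusted p = 0.462). The sign of the Cpa3 difference depended on the scaling: it was -0.03 with an offset for gene length and 0.72, at an adjusted p of 0.00412, with an offset for GC content taken from genes of at least 10 CPM.

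Of the 5 members, 1 was called higher and 1 lower in this comparison, at an adjusted p-value under 0.05. Over all 21014 genes tested, 0.571% were called higher and 1.68% lower. The groups did not overlap for 3 members (Tpsb2, Tpsab1 and Tpsg1), and over all genes for 5.33%. The same genes, Tpsb2 and Tpsg1, were called in each of 10 fits that left out 1 library and without libraries 7, 8 and 15, when their log2 fold changes were 1.17 and -0.99. Tpsb2 was no longer called with offsets for GC content (log2 fold change 0.73, edgeR adjusted p = 0.165) or for gene length (0.58, adjusted p = 0.513) taken from all genes, but was called when the same offsets were taken from genes of at least 10 CPM. All genes tested had a median of 0.24. Relative to that median, Tpsb2 was higher by 0.74 and Tpsg1 lower, at -1.29.

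The second comparison set the cells labelled bone marrow against the resident cells of the same treatment. Tpsab1 was the only member that passed the test, and it was higher in the bone marrow cells. It was at 6232, 6028, 5874 and 5384 CPM in libraries 11, 13, 14 and 15, each above every MC903 resident library and above every untreated one. Against MC903 resident cells the log2 fold change was 0.88 ± 0.145 (SE; 95% interval 0.58 to 1.18), or 1.84-fold, with an edgeR adjusted p of 0.00163. It was 0.93 without library 15 (adjusted p = 0.000786), and the gene was called in all 9 fits that left out 1 library. Without libraries 7, 8 and 15 it was 0.85 and called, and Tpsb2, Tpsg1 and Cpa3 were at -0.33, -0.06 and 0.22, not called. With an offset for gene length taken from genes of at least 10 CPM it was 0.57 and missed the threshold (adjusted p = 0.0602).

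Tpsb2 in the bone marrow libraries was at 19234, 25829, 23387 and 18422 CPM, within the range of the MC903 resident libraries. The log2 difference was -0.20 ± 0.168 (SE; 95% interval -0.55 to 0.15; edgeR adjusted p = 0.567). Tpsg1 was at 550.2, 743, 602 and 527 CPM, also overlapping the MC903 resident range, with a log2 difference of -0.05 ± 0.170 (SE; 95% interval -0.40 to 0.30; edgeR adjusted p = 0.915), the sign of which changed with the scaling. Cpa3 was at 33281, 41985, 40242 and 23504 CPM, and its log2 difference of 0.29 ± 0.197 (SE; 95% interval -0.11 to 0.70; edgeR adjusted p = 0.456) did not pass; with the offset for GC content from all genes it was 1.23 and passed (adjusted p = 0.0331). Library 15 was the lowest of the 4 bone marrow libraries for Cpa3, Tpsb2, Tpsg1 and Tpsab1, and it was the library with macrophage markers at 12581 CPM; the part of those cells in its values was not tested. Over all genes tested, 1.32% were called higher, 0.952% lower and 8.29% had groups that did not overlap; of the members, 1 was called higher, 0 lower, and 1 did not overlap.

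Against untreated resident cells, the bone marrow cells showed higher Tpsb2 and Cpa3 and lower Tpsg1. These untreated libraries are the same as in the first comparison, so both share them. The log2 fold change of Tpsb2 was 0.79 ± 0.167 (SE; 95% interval 0.44 to 1.13), or 1.72-fold, without overlap (edgeR adjusted p = 0.00473). Tpsg1 was 2.14-fold lower, at -1.10 ± 0.174 (SE; 95% interval -1.46 to -0.74), again without overlap (edgeR adjusted p = 0.000313). Tpsab1 was at 5879 ± 362 CPM (SD, n = 4) against 4444 ± 579 CPM (SD, n = 5); the groups did not overlap, and the log2 difference of 0.40 ± 0.145 (SE; 95% interval 0.10 to 0.70) missed the threshold (edgeR adjusted p = 0.105) here and passed it in 5 of 14 alternative fits. Cpa3 was at 34753 ± 8389 CPM (SD, n = 4) against 22133 ± 4534 CPM (SD, n = 5), 1.57-fold or 0.65 ± 0.196 on the log2 scale (SE; 95% interval 0.24 to 1.06), with an edgeR adjusted p of 0.0493 and overlapping groups. That call held in 2 of 9 fits that left out 1 library, namely without untreated library 5, the highest of its group, and without bone marrow library 15, the lowest of its group, when the value was 0.80 (adjusted p = 0.0054). Of the members, 2 were called higher, 1 lower, and 3 did not overlap, whereas over all genes tested 3.49% were called higher, 3.37% lower and 10.4% did not overlap. With the offset for gene length taken from all genes, none of the 3 passed the edgeR threshold, although the log2 fold changes were 1.10 for Tpsb2 (adjusted p = 0.0506), -0.78 for Tpsg1 (adjusted p = 0.149) and 0.99 for Cpa3 (adjusted p = 0.104), each with a larger SE. With the length offset taken from genes of at least 10 CPM, Tpsb2 was at 0.38 (adjusted p = 0.110) and Cpa3 at 0.27 (adjusted p = 0.216), and Tpsg1 was the only member called. With the offset for GC content, Tpsb2 was at 0.59 (edgeR adjusted p = 0.201). Without libraries 7, 8 and 15, all 3 were called, at 0.84 for Tpsb2, -1.05 for Tpsg1 and 0.79 for Cpa3.

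**Figure D2:**
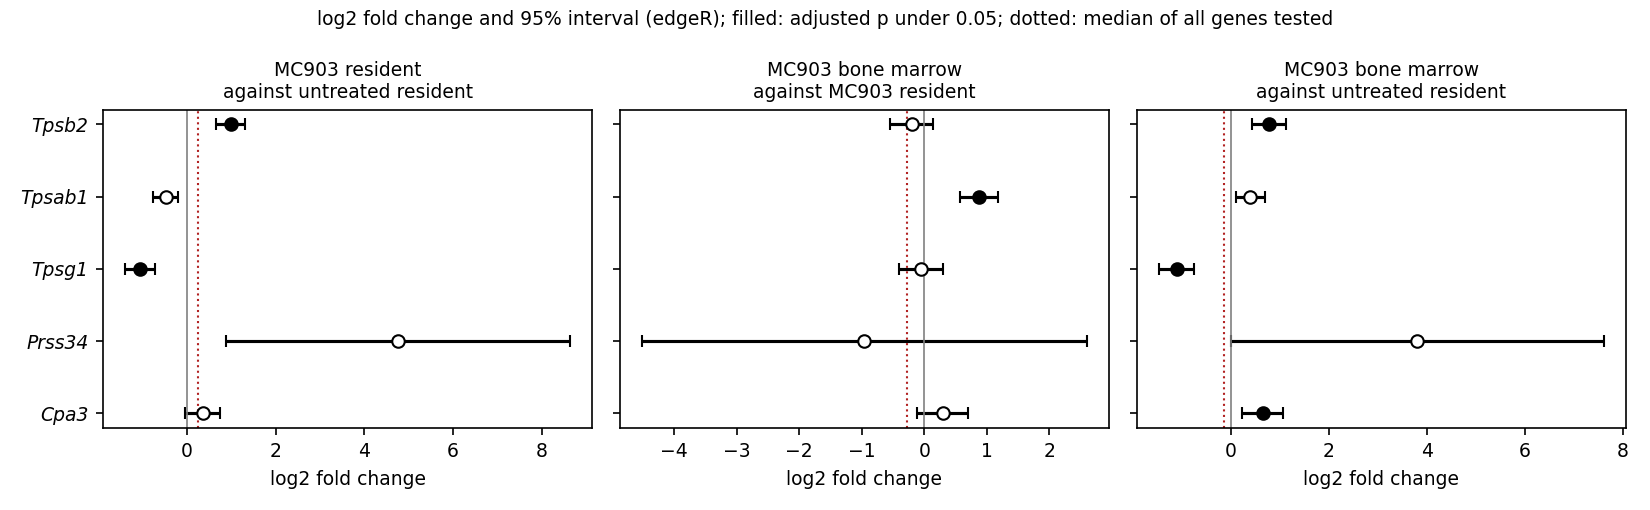
log2 fold change (horizontal axis) of each member with its 95% interval in the 3 comparisons; filled points had an edgeR adjusted p-value under 0.05, and the dotted line is the median of all 21014 genes tested. Filled points are Tpsb2 and Tpsg1 in the first panel, Tpsab1 in the second, and Tpsb2, Tpsg1 and Cpa3 in the last; the interval of Prss34 spans more than 6 log2 units in each panel.

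The order of the groups therefore differed from gene to gene. For Tpsb2 it was untreated resident, bone marrow, MC903 resident, and the last 2 did not differ beyond their spread. For Tpsg1 it was bone marrow, MC903 resident, untreated resident, and the first 2 did not differ beyond their spread. For Tpsab1 it was MC903 resident, untreated resident, bone marrow, with neither neighbouring pair past the test and only the ends of the order past it. For Cpa3 it was untreated resident, MC903 resident, bone marrow, also with only the ends past the test.

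Prss34 was almost absent from most libraries. Its counts were 32, 0, 2, 0 and 0 in untreated libraries 1 to 5, then 2, 728, 33, 36 and 116 in MC903 resident libraries 6 to 10, and 114, 456, 9 and 0 in bone marrow libraries 11, 13, 14 and 15. In CPM, library 7 was at 42.2 and library 13 at 15.9, and no other library exceeded 4.89. All 3 groups held at least 1 library with 3 counts or fewer, and the groups overlapped. The edgeR log2 differences were 4.76 ± 1.86 (adjusted p = 0.236) for MC903 resident against untreated resident, -0.96 ± 1.71 (adjusted p = 0.822) for bone marrow against MC903 resident and 3.81 ± 1.82 (adjusted p = 0.233) for bone marrow against untreated resident (each with its SE), and none passed. The basophil protease gene Mcpt8 was at 18.9 CPM in library 7, 206 CPM in library 13 and 980 CPM in library 11, and at 83.6 CPM in library 14 and 46.7 CPM in library 15. Within the bone marrow group, libraries 11 and 13 were the higher ones for both genes, and in the MC903 resident group library 10 was highest for Mcpt8, at 57.3 CPM, and library 7 for Prss34. Untreated resident libraries had a mean Mcpt8 level of 23.4 ± 11.9 CPM (SD, n = 5), with 19.3 ± 22.04 CPM in MC903 resident libraries (SD, n = 5), beside Prss34 means of 0.378 and 10.2 CPM. The 5 basophil markers (Mcpt8, Cd200r3, Itga2, Il3ra and Cd69) summed to 1147 to 1777 CPM in untreated resident, 684 to 1661 CPM in MC903 resident and 436 to 1894 CPM in bone marrow libraries, and 4 or 5 of them exceeded 10 CPM in every library. In the resident groups Mcpt8 was only a small part of these sums, which do not show by themselves that basophils were present. The part of any basophils in the Prss34 counts was not tested.

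Ratios of read counts within a library do not depend on a factor applied to the whole library, such as TMM, but do depend on offsets that differ between genes, such as those for GC content or gene length, which were not applied to them. The ratio of Tpsb2 to Tpsg1 was 7.98 to 12.7 in untreated resident libraries, 27.8 to 49.0 in MC903 resident libraries and 34.8 to 38.9 in bone marrow libraries. Every library of treated mice was above every library of untreated mice, and the bone marrow range lay within the MC903 resident range. The ratio of Tpsb2 to Tpsab1 was 2.52 to 3.20 in untreated resident, 4.75 to 10.1 in MC903 resident and 3.09 to 4.28 in bone marrow libraries. Here the MC903 resident cells stood above both other groups, which overlapped each other, and library 7 was again the lowest of the MC903 resident group.

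The ratio of Tpsab1 to Tpsg1 was 2.49 to 5.02, 4.39 to 5.95 and 8.11 to 11.3 in the same order of groups, so that bone marrow cells stood above the overlapping resident groups. As shares of the reads of the 4 tryptases, Tpsb2 took 67.8% to 69.7% in untreated resident, 80.1% to 89.4% in MC903 resident and 73.9% to 79.2% in bone marrow libraries. These 3 ranges did not overlap. The share of Tpsg1 was 5.35% to 8.72% in untreated resident libraries and at most 2.88% in any library of treated mice. Against Cpa3, the ratio of Tpsb2 was 0.436 to 0.681, 0.725 to 1.10 and 0.578 to 0.784, with mean log2 ratios of -0.79, -0.18 and -0.66. The resident groups did not overlap in this ratio, and the bone marrow libraries overlapped both. The ratio of Tpsg1 to Cpa3 was 0.0538 to 0.0629 in untreated resident libraries, 0.0177 to 0.0277 in MC903 resident and 0.0149 to 0.0224 in bone marrow libraries. These ratios involve genes chosen with earlier results of these data known, and no test was made on them.

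**Figure D3:**
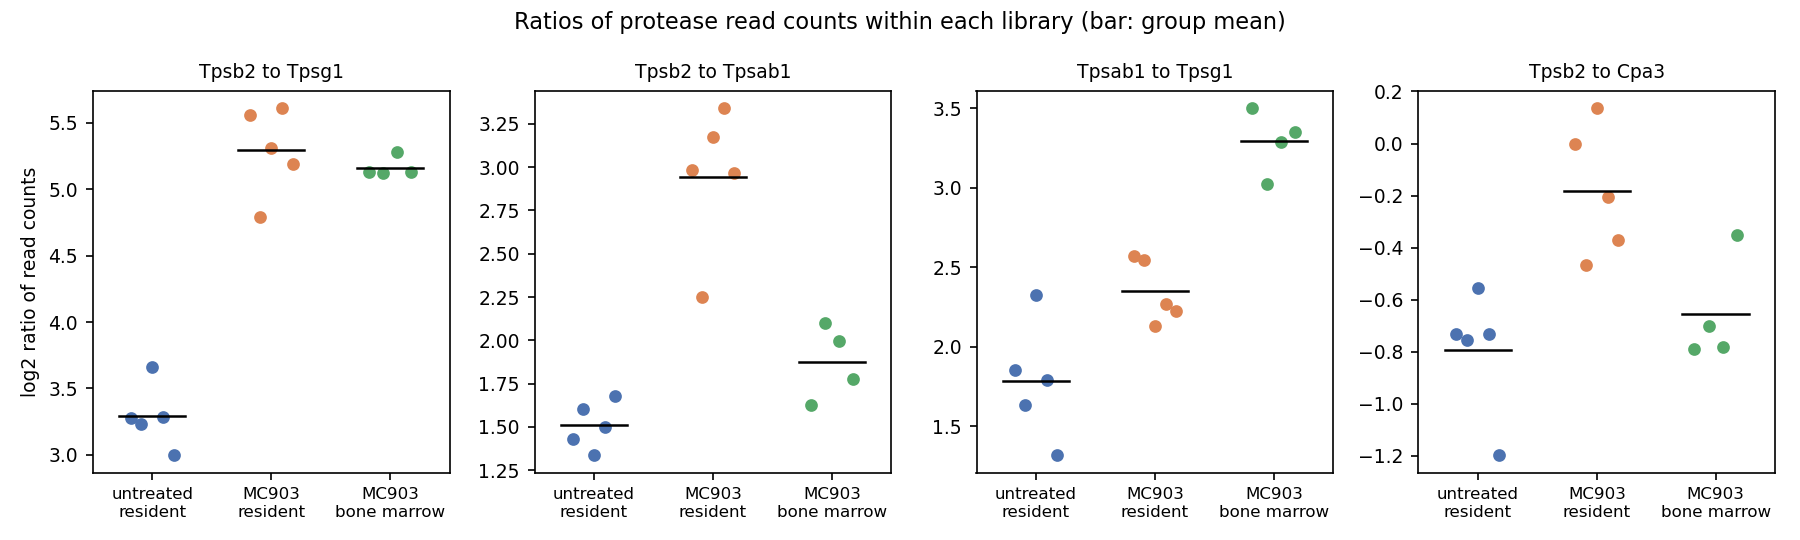
log2 ratio of read counts between pairs of members (vertical axis) in each library (points), by group, with the group mean as a bar. Tpsb2 to Tpsg1 separates untreated from treated mice, Tpsb2 to Tpsab1 is highest in MC903 resident cells, Tpsab1 to Tpsg1 is highest in bone marrow cells, and Tpsb2 to Cpa3 overlaps between bone marrow cells and both resident groups.

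Across the 14 libraries, log2 CPM of Tpsb2 and Cpa3 had a Pearson correlation of 0.71, and it was 0.71 also after the mean of each group was removed. For Tpsb2 and Tpsg1 the correlation was -0.73 across libraries and 0.46 within groups, and for Tpsg1 and Cpa3 it was -0.36 and 0.77. All genes of a library share its total and its scaling factor. For Tpsab1 the correlations across libraries were -0.21 with Tpsb2, 0.05 with Tpsg1 and 0.27 with Cpa3, and within groups they were 0.12, -0.04 and 0.20.

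Among 6049 genes that averaged 20 CPM or more, those whose log2 CPM followed Tpsb2 most closely over the 14 libraries were Fcer1a (Pearson correlation 0.91), Homer2 (0.89), Ctsd (0.88), Tomm5 (0.87) and Tmem160 (0.87). Fcer1a encodes the IgE-binding chain of the high-affinity IgE receptor, Homer2 a scaffold protein and Ctsd the lysosomal protease cathepsin D. For Cpa3 they were Manf (0.92), Sdf4 (0.91), Atxn10 (0.91), Nucb1 (0.90) and Ldha (0.90). Manf encodes a factor of the endoplasmic reticulum, Sdf4 and Nucb1 calcium-binding proteins of the Golgi, and Ldha a subunit of lactate dehydrogenase. For the Cpa3 genes the correlation within groups was 0.83 to 0.94, and for the Tpsb2 genes it was 0.50 to 0.75.

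The rest of the tryptase locus held little RNA. Of 13 trypsin-like genes of the list, 9 had enough counts to be tested, and those called were the members named above. The 5 other genes tested (Prss21, Prss27, Prss32, Prss33 and Prss41) had means of at most 2.19 CPM in any group, and none was called. The median log2 fold change of the 9 genes was 0.99, -0.85 and 0.40 in the 3 comparisons, beside 0.24, -0.28 and -0.14 over all genes. These medians are the values of Tpsb2, Prss41 and Tpsab1 in turn. They therefore repeat results of the members or describe a gene with a mean of at most 0.78 CPM. Of 15 M14 carboxypeptidases, 14 were tested, and Cpa3 in bone marrow against untreated resident cells was the only call. In that comparison 3.49% of all genes tested were called higher and 3.37% lower. The shares were 0.571% and 1.68% between the resident groups, and 1.32% and 0.952% between the treated groups. Cpd, a carboxypeptidase of the trans-Golgi, was next in level at 14.97, 24.2 and 21.0 CPM in untreated resident, MC903 resident and bone marrow cells. The median log2 fold changes of the M14 list (0.87, -1.50 and -0.16 in the 3 comparisons, against 0.24, -0.28 and -0.14 for all genes) come from a list in which every gene but Cpa3 and Cpd had a mean of at most 7.84 CPM in each group.

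The chymase locus, whose products share the granule with tryptase and carboxypeptidase, held 9 genes, all of them tested. In MC903 resident against untreated resident cells 2 rose and 0 fell, where 0.571% and 1.68% of all genes tested did. Mcpt4 (mouse mast cell protease 4, a chymase) rose from 14107 ± 1158 to 23775 ± 3520 CPM (SD, n = 5 each), with a log2 fold change of 0.75 ± 0.141 (SE) and an edgeR adjusted p of 0.00377. Cma1 (mouse mast cell protease 5, the partner of carboxypeptidase A3 in storage) rose by 0.75 ± 0.165 (edgeR adjusted p = 0.0135), with groups that overlapped. In bone marrow against MC903 resident cells 3 were higher (Ctsg, Gzmb and Mcpt1) and Mcpt4 was lower, at -1.44 ± 0.154 (edgeR adjusted p = 1.43e-05), with 1.32% of all genes called higher and 0.952% lower. Against untreated resident cells 5 were higher (Cma1, Mcpt1, Mcpt2, Ctsg and Gzmb) and Mcpt4 was lower, at -0.68 ± 0.150 (edgeR adjusted p = 0.00626), with 3.49% of all genes called higher and 3.37% lower. Every bone marrow library was below every resident library in Mcpt4, whereas the Tpsb2 values of the bone marrow libraries lay within the MC903 resident range. Ctsg, which encodes cathepsin G, was at 470 ± 131, 256 ± 69.0 and 2245 ± 711 CPM in untreated resident, MC903 resident and bone marrow cells. Mcpt1, a mucosal mast cell chymase, was at 1278 CPM in library 11, 1768 CPM in library 13, 1.07 CPM in library 14 and 6.59 CPM in library 15, so that it was high in 2 of the 4 bone marrow libraries. The median log2 fold change of the locus was 0.48, 3.13 and 2.26 in the 3 comparisons, beside 0.24, -0.28 and -0.14 over all genes.

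Of 16 genes for serglycin and for heparin synthesis, on which granule storage of these proteases depends, none was called between the resident groups. Srgn, the serglycin core protein, was at 2569 ± 476, 2747 ± 624 and 4972 ± 965 CPM in untreated resident, MC903 resident and bone marrow cells. The log2 fold change between the treated groups was 0.86 ± 0.190 (SE), higher in bone marrow cells (edgeR adjusted p = 0.0179). In that comparison Hs3st1 (heparan sulfate 3-O-sulfotransferase) was also higher, at 1.55 ± 0.251 (edgeR adjusted p = 0.00155), and Hs2st1 (the 2-O-sulfotransferase) was lower, at -1.23 ± 0.225 (edgeR adjusted p = 0.00395). Against untreated resident cells 4 were higher, Srgn, Hs3st1 and the linker-region enzyme B3gat3 among them, and Hs2st1 was lower; over all genes, 3.49% were called higher and 3.37% lower there, and 1.32% and 0.952% between the treated groups. Ndst2, which encodes the sulfotransferase required for mast cell heparin, was at 806 ± 154, 938 ± 198 and 943 ± 358 CPM and was not called in any comparison. The list had a median log2 fold change of 0.06, 0.47 and 0.29 in the 3 comparisons, beside 0.24, -0.28 and -0.14 over all genes.

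Among 9 tested genes for maturation and inhibition of the proteases, none was called between the resident groups, where 0.571% of all genes were called higher and 1.68% lower. Between the treated groups 1 was called higher and 0 lower, beside 1.32% and 0.952% of all genes. In bone marrow against untreated resident cells 2 were called higher and 1 lower, beside 3.49% and 3.37%. Ctsc, which encodes cathepsin C (dipeptidyl peptidase I, which removes the activation peptide of granule serine proteases), was above the MC903 resident level in bone marrow cells, by 2.02 ± 0.267 (SE) on the log2 scale (edgeR adjusted p = 0.000159). It was at 718, 974, 1028 and 2102 CPM in bone marrow libraries 11, 13, 14 and 15, and library 15 was the highest. Ctsb, which encodes cathepsin B, had levels of 272, 365, 244 and 3113 CPM in these bone marrow libraries, and Ctsl, which encodes cathepsin L, of 0, 7.72, 0 and 661 CPM; both were highest in library 15, and neither was called in any comparison. Ctss, which encodes cathepsin S, was called higher than in untreated resident cells and was at 85.2, 107 and 93.6 CPM in libraries 11, 13 and 14 and reached 1960 CPM in library 15. Serpinb1a, an inhibitor of neutrophil-type serine proteases and chymase, was at 22041 ± 4278 CPM in untreated resident cells (SD, n = 5) and at 13092 ± 1870 CPM in bone marrow cells (SD, n = 4), and the log2 fold change was -0.75 ± 0.182 (SE), at an adjusted p of 0.0130 (edgeR). MC903 resident cells were at 14702 ± 3447 CPM (SD, n = 5), which bone marrow cells did not differ from (log2 difference -0.17, edgeR adjusted p = 0.677). Between the resident groups the log2 difference was -0.58 ± 0.170 (SE) and missed the threshold (edgeR adjusted p = 0.0808). Lxn, which encodes latexin, an inhibitor of A-type carboxypeptidases, was at 372 ± 37.0, 336 ± 86.0 and 356 ± 87.1 CPM in the 3 groups and was not called. This list had a median log2 fold change of -0.15, 0.97 and 0.13, beside 0.24, -0.28 and -0.14 over all genes.

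Of 9 substrates and receptors linked to these enzymes, 6 were tested and Ednra was the only one called, lower in bone marrow than in either resident group. Shares over all genes were 1.32% higher and 0.952% lower against MC903 resident, and 3.49% and 3.37% against untreated resident cells. Between the resident groups none was called, beside 0.571% higher and 1.68% lower over all genes. Ednra encodes a receptor for endothelin, a peptide that carboxypeptidase A3 degrades, and was at 183 ± 28.7, 145 ± 52.9 and 35.4 ± 25.3 CPM in untreated resident, MC903 resident and bone marrow cells. Bone marrow cells were below MC903 resident cells, with a log2 fold change of -2.03 ± 0.364 (SE) and an adjusted p of 0.00348 (edgeR). F2rl1, the gene of the receptor that tryptase can activate (PAR2), had too few counts to be tested. The 6 tested genes had a median log2 fold change of 0.996, -2.24 and -0.85 in the 3 comparisons, beside 0.24, -0.28 and -0.14 over all genes.

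Of 14 regulators of mast cell protease genes, 13 were tested, and the only call in any comparison was Gata1. Among all 21014 genes, 0.571% were called higher and 1.68% lower between the resident groups, and 1.32% and 0.952% between the treated groups. In bone marrow against untreated resident cells the shares were 3.49% and 3.37%, so few calls are found in a list of this size. It was at 108 ± 6.58 CPM in untreated resident and 187 ± 49.8 CPM in MC903 resident cells (SD, n = 5 each), without overlap, and the log2 fold change was 0.80 ± 0.199 (SE), at an adjusted p of 0.0348 (edgeR). Gata2, the regulator with the highest level, was at 2801 ± 350, 2050 ± 227 and 2475 ± 818 CPM in the 3 groups; the resident groups did not overlap, and the log2 difference of -0.45 ± 0.190 (SE) did not pass the test (edgeR adjusted p = 0.291). Mitf, which encodes a transcription factor needed for tryptase expression in mast cells, was at 120 ± 25.3, 96.8 ± 21.9 and 73.0 ± 9.04 CPM and was not called, with an edgeR adjusted p of 0.0554 for bone marrow against untreated resident cells. Tal1, Runx1, Spi1 and Stat5b, each above 100 CPM in at least 1 group, were not called either. The regulators had a median log2 fold change of -0.24, 0.10 and -0.02, beside 0.24, -0.28 and -0.14 over all genes.

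**Figure D4:**
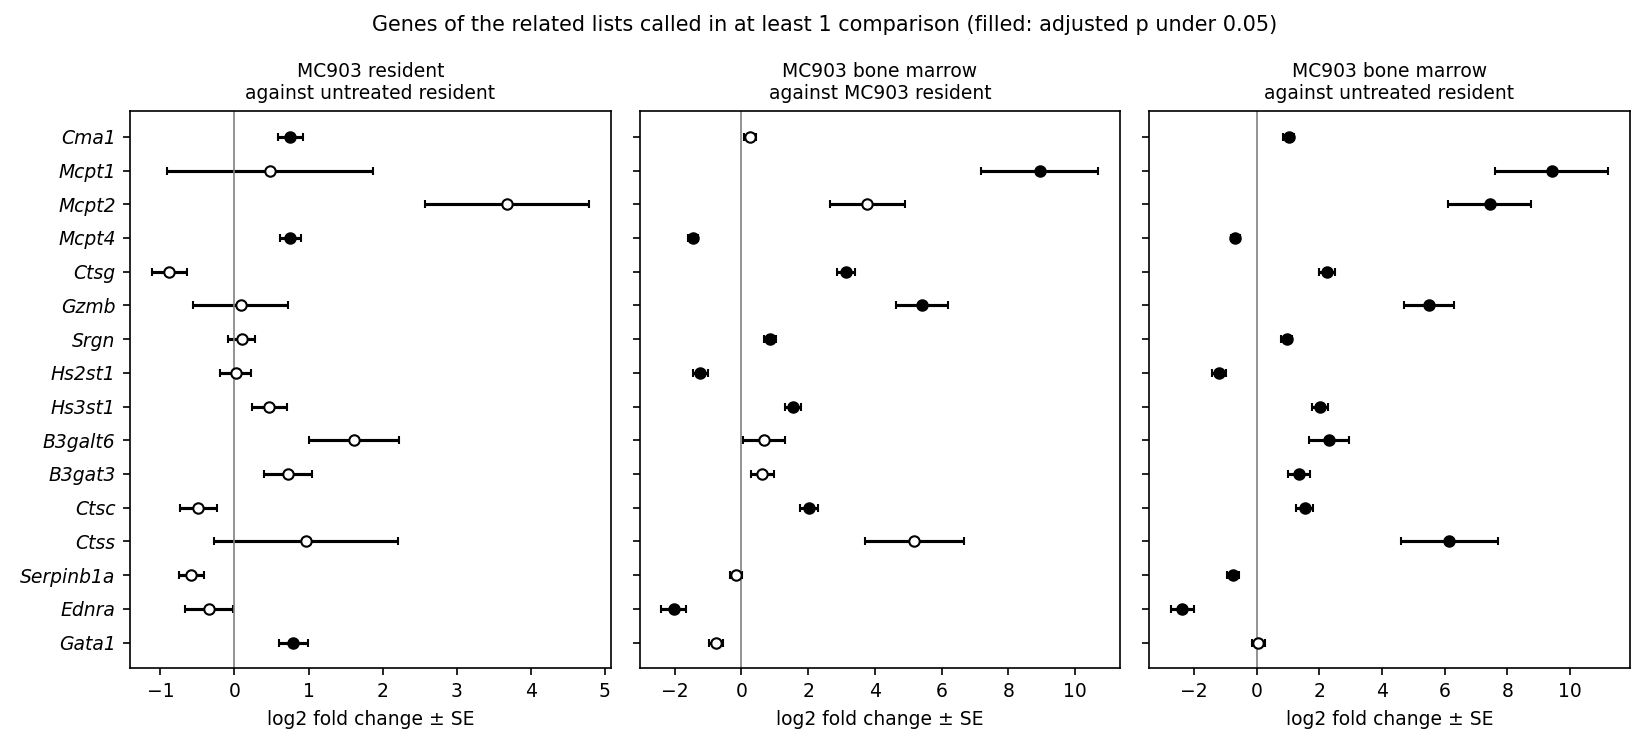
log2 fold change ± SE (horizontal axis) of the genes of the related lists that were called in at least 1 comparison; filled points had an edgeR adjusted p-value under 0.05. Between the resident groups only Cma1, Mcpt4 and Gata1 are filled, while chymase-locus, storage and maturation genes are filled in the panels with bone marrow cells. Filled points to the left of 0 are Mcpt4, Hs2st1 and Ednra in both of those panels and Serpinb1a against untreated resident cells.

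**Figure D5:**
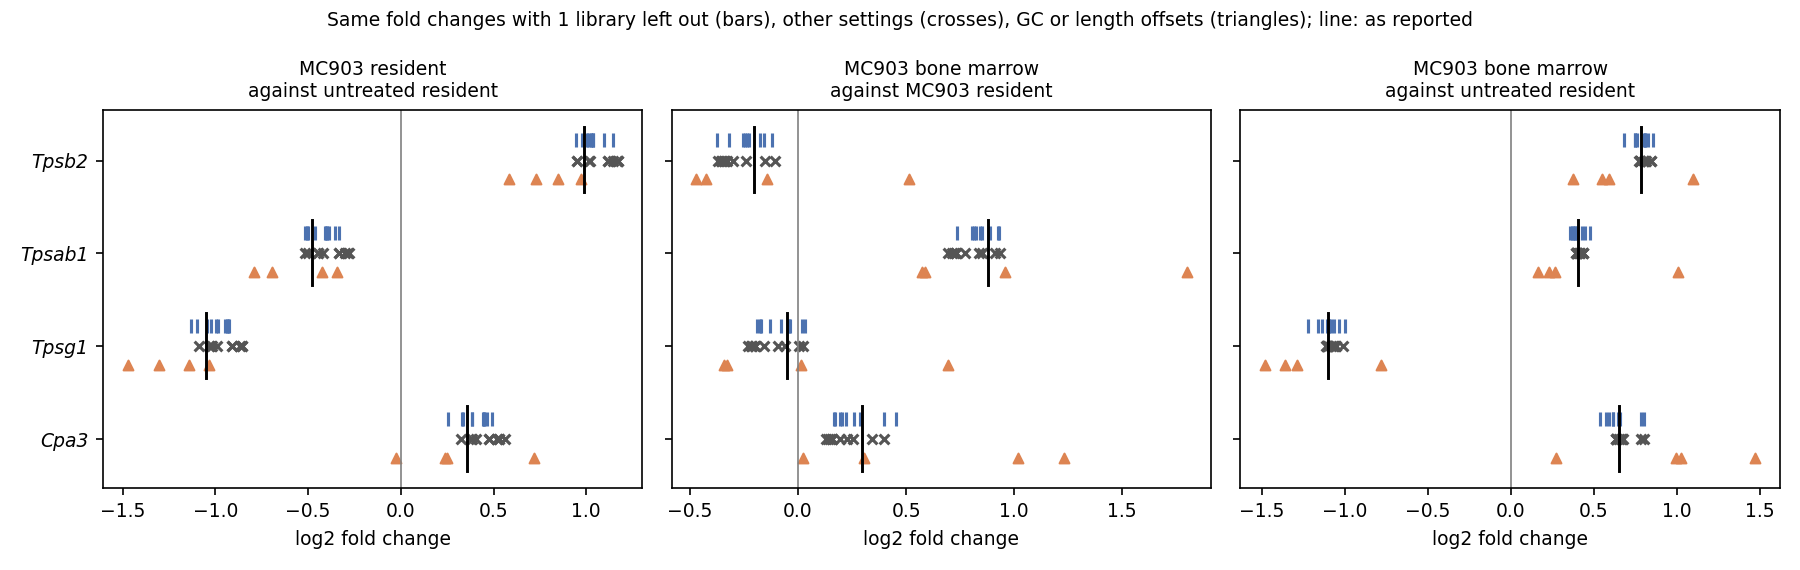
log2 fold change (horizontal axis) of 4 members in the 3 comparisons as reported (black line), with 1 library left out (bars), under other settings (crosses) and with offsets for GC content or gene length (triangles). Tpsb2 stays to the right and Tpsg1 to the left of 0 against untreated resident cells under every setting shown, whereas the triangles spread most in the second panel.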

How the data were processed

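Gene counts were deposited by the authors as 1 table of whole numbers for 14 libraries, with a gene length per row, per the file headers. Per the labels' protocols, complementary DNA was made from small sorted pools with SMART-Seq HT (full-length, without molecular identifiers or strand marks) and libraries with Nextera XT. STAR, featureCounts and mm10 are named without versions, per the submitters' processing notes. Other columns of the deposited table give exon coordinates and length; the gene positions match GENCODE on GRCm38. Of 55487 gene identifiers 55394 had a symbol, and 0 count columns were left out.

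Genes were kept by filterByExpr (minimum count 10, minimum total count 15), which left 21014. TMM factors and 1 quasi-likelihood model with 3 groups and 14 libraries were fitted with edgeR 4.0.16 in R 4.3.3 (robust, no covariates). Adjusted p-values are Benjamini-Hochberg over all genes tested, and a gene was called at an adjusted p-value under 0.05. CPM are TMM-scaled counts relative to the total over tested genes; CPM per kilobase uses the deposited length. Log2 CPM for correlations used a prior count of 2. Intervals are 95% and rest on the spread between libraries; amplified reads are not independent molecules, and depth ranged from 13068078 to 31781926 counts.

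Groups came from the titles. Libraries carry 1 running number and no animal, so no pairing was used. The members, the gene lists and the tests were chosen with earlier results of these data known. Named genes were the 5 members, list genes that were called (up to 4 per list and comparison) or had a mean of at least 100 CPM in a group, and for Tpsb2 and Cpa3 the 5 genes of highest correlation among those with a mean of at least 20 CPM, leaving out predicted-gene, clone and mitochondrial symbols. Cacna1h, Cpd, Ednrb, F2rl1 and the further Prss genes of the locus fall outside this rule and were named after their values were seen. Cell type markers came from separate lists. Alternatives were DESeq2 size factors, scaling without the members, library totals alone, limma 3.58.1 voomWithQualityWeights, the Wald test of DESeq2 1.42.0, no filter, keeping genes at 10 CPM or more on average, fits restricted to the compared groups, omission of each library and omission of libraries 7, 8 and 15 together. TMM from genes of at least 10 CPM and offsets for GC content or gene length (20 bins, from all genes or from genes of at least 10 CPM) were chosen after seeing the data.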

Additional observations from a re-analysis of the deposited data

Results flagged for a closer look

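Of 15 groups of library values (5 members in 3 groups), 3 held a library that stood farther from the nearest other one, relative to the range of the group, than a limit that chance passes in about 1 of 20 groups of normally distributed values. Values of Prss34 were mostly near 0 and strongly skewed, so that rate does not hold for its groups. Tpsg1 in MC903 resident library 10 was at 772 CPM, with the nearest library at 606 CPM; without that library Tpsg1 was still called lower in MC903 resident than in untreated resident cells. Prss34 in untreated resident library 1 was at 1.81 CPM, with the nearest at 0.0751 CPM, and without it the log2 difference between bone marrow and untreated resident cells moved from 3.81 to 7.66 and passed the edgeR threshold (adjusted p = 0.0394). Prss34 in MC903 resident library 7 was at 42.2 CPM, with the nearest at 4.89 CPM, and without it the log2 difference between bone marrow and MC903 resident cells was 1.19 in place of -0.96, not called in either fit.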

How the results depend on the processing

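Tpsg1 was called lower in MC903 resident than in untreated resident cells under all 14 alternative settings, and Tpsb2 was called higher under 12. Leaving out 1 library kept the calls of Tpsb2 and Tpsg1 against untreated cells and of Tpsab1 between the treated groups in every fit. The cause of the changes below was not tested. The scaling moved the median over all genes, for MC903 resident against untreated resident from 0.24 to 0.44 with library totals alone and -0.02 with the length offset. Relative to the median, Tpsb2 was 0.22 to 1.14 and Tpsg1 -1.82 to -0.89 there. Library totals alone also moved the split of calls from 120 higher and 353 lower to 243 and 274, and between the treated groups from 277 and 200 to 159 and 266. No paired analysis was possible because the libraries carry 1 running number and no number is shared between groups.

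For MC903 resident against untreated resident cells, Tpsb2 was 0.73 with the GC offset and 0.58 with the length offset, neither called. Tpsab1 was called at -0.52 without a filter and -0.50 with voom, and Prss34 at 4.70 without a filter. Cpa3 was called at 0.52 with library totals alone, 0.53 with TMM from genes of at least 10 CPM and 0.72 with the GC offset from those genes, and was -0.027 with the length offset. Genes called numbered 473, and 1072 with the DESeq2 Wald test, 1358 with voom, 312 with the GC offset, 305 with the length offset and 253 without libraries 7, 8 and 15. With 1 library left out, Tpsb2 was 0.95 to 1.15, Tpsab1 -0.52 to -0.33, Tpsg1 -1.13 to -0.93, Prss34 2.59 to 8.77, Cpa3 0.26 to 0.49 and the genes called 312 (without untreated library 1; 314 without MC903 resident library 6) to 516.

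For bone marrow against MC903 resident cells, Tpsb2 was 0.51 with the length offset. Tpsab1 was 0.57 with the length offset from genes of at least 10 CPM, not called. Tpsg1 was 0.0034 without a filter, 0.021 with voom, 0.014 with the GC offset, 0.69 with the length offset, 0.031 without MC903 resident library 10 and 0.02 without bone marrow library 15. Prss34 was 0.53 with the length offset, 1.62 without libraries 7, 8 and 15 and 1.19 without library 7. Cpa3 was called at 1.23 with the GC offset. Genes called numbered 477, and 748 without a filter, 1720 with the DESeq2 Wald test, 2017 with voom, 1239 with the GC offset, 1443 with the length offset and 315 with only the groups compared. With 1 library left out, Tpsb2 was -0.38 to -0.12, Tpsab1 0.74 to 0.93, Tpsg1 -0.19 to 0.03, Prss34 -2.60 to 1.19, Cpa3 0.17 to 0.45 and the genes called 302 (without MC903 resident library 7; 305 without 6 and 314 without 9) to 704.

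For bone marrow against untreated resident cells, Tpsb2 was 0.59 with the GC offset, 1.10 with the length offset and 0.38 with the length offset from genes of at least 10 CPM, none called. Tpsab1 was called at 0.42 without a filter, 0.43 with the filter at a mean of 10 CPM, 0.40 with the DESeq2 Wald test, 0.41 with voom and 0.44 with TMM from genes of at least 10 CPM. Tpsg1 was -0.78 with the length offset, and Prss34 was called at 3.83 without a filter. Cpa3 was 0.66 without a filter, 0.99 with the length offset, 0.27 with that offset from genes of at least 10 CPM and 0.64 with only the groups compared, none called. Genes called numbered 1443, and 2757 with the DESeq2 Wald test and 2194 with voom. With 1 library left out, Tpsb2 was 0.68 to 0.86, Tpsab1 0.36 to 0.48, Tpsg1 -1.22 to -1.002, Prss34 2.20 to 7.66, Cpa3 0.54 to 0.80 and the genes called 1140 to 1549. The counts of Prss34, 3 or fewer in 6 libraries, limit any statement on it.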
